A study of Rattus norvegicus with 9 samples.

Results

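Small RNA reads of 20 to 24 nts that matched no miRNA entry were described in 9 libraries from the left ventricular wall of the rat. The deposited table of unannotated sequences holds 13317 different sequences of 15 to 55 nts with their raw read counts. Those of 20 to 24 nts were taken by length alone, which gave 2950 sequences and 927602 reads. The libraries came from 3 male Sprague-Dawley rats of 8 months (hearts 6, 7 and 8), and the free wall of each left ventricle was cut into epicardium, mid-myocardium and endocardium. The labels name no treatment, so the 3 groups differ in the layer, with 3 libraries each, and the libraries of a heart share an animal. Each layer is a slice of whole tissue and not a purified cell type. In the annotated reads the muscle miRNA miR-133a ran from 47686 to 132474 RPM of annotated reads. The other muscle miRNAs were lower, with miR-1 at 2697 to 5903 and miR-133b at 897 to 2475. The range was 557 to 1555 for miR-499 and 319 to 1070 for miR-208. The vessel miRNA miR-143 ran from 90129 to 153326. Below it were miR-126 (10726 to 16108), miR-145 (1459 to 3288), miR-199a (1352 to 2728) and miR-214 (97.7 to 217). Leukocyte miRNAs ran from 5153 to 12909 (miR-150), 419 to 707 (miR-142) and 20.3 to 63.4 (miR-223). Of the miRNAs linked to red cells, miR-486, which the paper also cites as enriched in muscle, ran from 92952 to 228287. The others were far lower, with miR-451 at 377 to 960 and miR-144 at 40.8 to 207. The epithelial and mesothelial miRNAs miR-200a, miR-200b, miR-200c and miR-141 had medians of 1.40 to 14.1.

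The length window is that of mature miRNAs, which Dicer cuts from a hairpin to about this size and which often begin with U. Reads of the same size also arise when longer RNAs break or are cut. Ribosomal RNAs, transfer RNAs, which carry an added CCA at the 3′ end, and box C/D small nucleolar RNAs, which hold the letters CTGA (the D box) near the 3′ end, are known sources of such pieces. In tissue sliced whole, fewer cells of a type and less RNA per cell cannot be told apart.

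Many of the 2950 sequences overlap, so they were gathered into families. The most abundant sequence leads a family and takes every sequence that shares at least 16 bases in a row with it, which gave 679 families, 264 of them with 1 sequence. The leads of the 10 families with the highest mean level are shown first because these families held most of the reads. Bases are 5′ to 3′ as deposited, in DNA letters, and capitals mark a final CCA or a CTGA within the last 7 bases.
Family 1: ggaataccgggtgctgtaggcttt
Family 2: actaaccctagccctacaaccaac
Family 3: tacgcctgtctgagcgtcgct
Family 4: cctccgcgtcggcggttccc
Family 5: ctccggcctcgtcctcccccttc
Family 6: accattcgtagacgacctgcttc
Family 7: ttgtcctgagaagaCTGAaca
Family 8: accccccgtcgcctccgtcgtc
Family 9: cataaaaatgaacactttgaCCA
Family 10: agaattaatgtgaattgcaggaca

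No reference for ribosomal or transfer RNA was used here, so a name for these families rests on background knowledge of the letters. Family 1 has the letters of the 3′ end of 5S ribosomal RNA, family 3 those of the 3′ end of 5.8S ribosomal RNA, family 10 those of an inner stretch of 5.8S, and family 6 those of 28S ribosomal RNA. Families 2, 4, 5, 7, 8 and 9 are left without a name. Ribosomal RNAs form the core of the ribosome and are the most abundant RNAs of most cells.

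Reads of 20 to 24 nts made up 13.1 to 20.2% of the unannotated reads. In epicardium the share was 20.2% (95% interval 20.1 to 20.3%), 18.6% (18.5 to 18.7%) and 13.2% (13.1 to 13.3%) in hearts 6, 7 and 8. In mid-myocardium it was 18.7% (18.5 to 18.9%), 16.8% (16.7 to 17.0%) and 15.8% (15.7 to 15.8%), and in endocardium 20.2% (20.1 to 20.3%), 13.4% (13.3 to 13.5%) and 13.1% (13.0 to 13.2%). The intervals are exact binomial ones and cover counting error only. In every layer heart 6 was highest and heart 8 lowest, and the ranges of the layers overlapped.

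**Figure D1:**
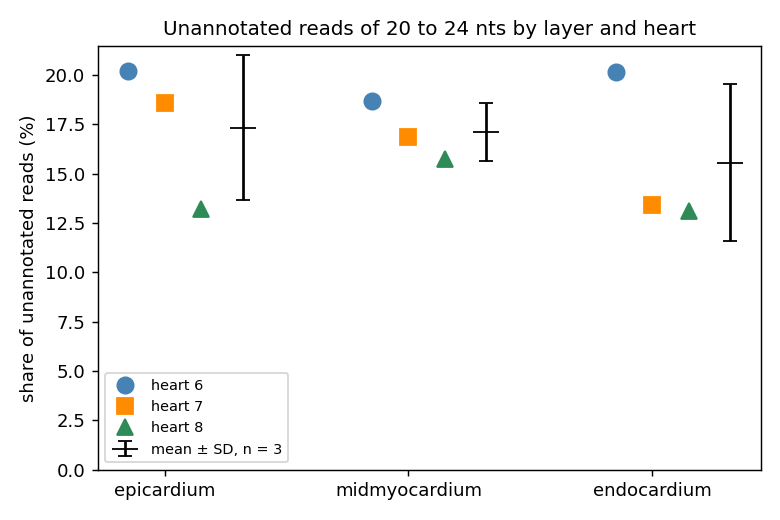
Share of unannotated reads that were 20 to 24 nts long (vertical axis, percent) in each layer, with a symbol for each heart and the mean ± SD of 3 libraries. The layers overlap, and heart 6 is the highest point in each of them.

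Layer means were 17.3% ± 3.67 (SD, n = 3) in epicardium, 17.1% ± 1.47 in mid-myocardium and 15.6% ± 3.99 in endocardium. Endocardium was below epicardium by 1.77 percentage points. It was lower in 3 of 3 hearts, but by little in heart 6 (20.17 against 20.19%) and heart 8 (13.11 against 13.19%). Most of the difference came from heart 7 (13.4 against 18.6%). The difference did not pass an exact two-sided permutation test (p = 0.7, adjusted p = 1 over the 3 layer pairs, smallest possible p 0.1). Mid-myocardium against epicardium gave an exact p of 1 and mid-myocardium against endocardium an exact p of 0.6. The reads outside the window were spread over 15 to 19 nts (26.3 to 43.2%), 25 to 34 nts (24.7 to 38.3%) and 35 to 55 nts (12.1 to 26.1%).

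Within the window the unannotated reads did not peak at the length of a miRNA. Reads of 22 nts were 17.97% ± 2.30 (SD, n = 9 libraries) of them, against 49.8% ± 2.41 of the reads of 20 to 24 nts annotated to rat miRNAs. The most common length among the unannotated reads was 24 nts, with 27.2% ± 5.89. A first base of U (T in the file) was found in 18.3% ± 2.67 of the unannotated reads and in 62.9% ± 1.92 of the annotated ones. Both features were lower in the unannotated reads in 9 of 9 libraries, by 31.9 and 44.7 percentage points. The annotated reads were chosen for their match to miRNAs and the unannotated ones are what remained, so this is a description with no test.

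**Figure D2:**
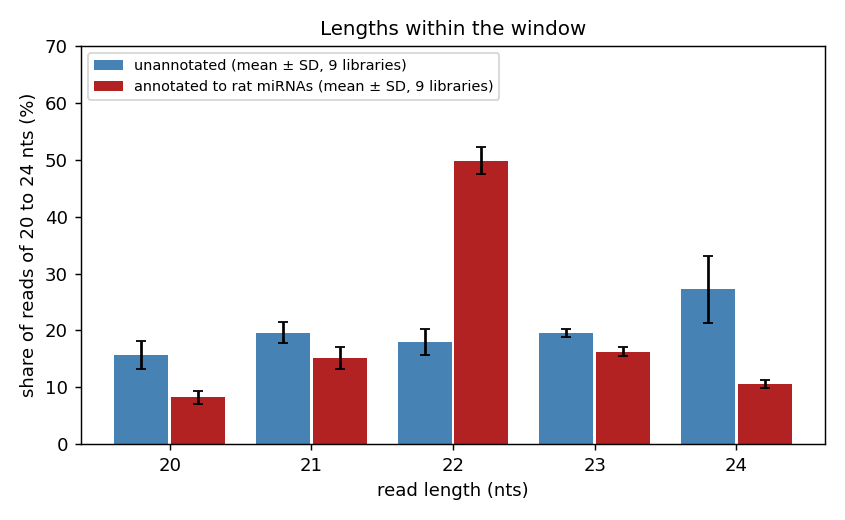
Share of reads by length (horizontal axis, nts) within the window of 20 to 24 nts, as the mean of 9 libraries with SD bars, for unannotated reads and reads annotated to rat miRNAs. Annotated reads peak at 22 nts with 49.8%, while unannotated reads are most common at 24 nts with 27.2%.

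A few sources supplied most of the reads. The first 10 families by reads held 54.9% of all reads of 20 to 24 nts, 8 families reached 50%, and 48 single sequences did so. The median sequence had 67 reads over all 9 libraries, 1826 sequences had fewer than 90, and 132 had at least 1000. Reads were present in all 9 libraries for 1889 sequences (64.0%). The mid-myocardium of heart 6, the shallowest library with 153988 unannotated reads, lacked 644 sequences, and the endocardium of heart 7, the deepest with 1379536, lacked 32.

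Most of the sequences were also pieces of longer reads. Of the 2950, 2344 (79.5%) lay whole inside a deposited unannotated sequence of 25 to 55 nts, and these held 93.0% of the reads. The 5′ end was shared with a longer sequence in 551 of them, the 3′ end in 856, both in 846 and neither in 91. The other 606 sequences lay in no longer one and held 7.02% of the reads.

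Family 1, with the letters of the 5S ribosomal RNA 3′ end, was the most abundant and among the most variable. It held 73 sequences and 145267 reads, or 15.7% of the reads of 20 to 24 nts. In hearts 6, 7 and 8 it stood at 66357, 8422 and 7336 RPMU in epicardium, where RPMU is reads per 1000000 unannotated reads of the library. Mid-myocardium had 26158, 11084 and 5430, and endocardium 60237, 30362 and 8331. Each layer had its highest value in heart 6, and the ranges of the layers overlapped.

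The spread of family 1 sat mostly in 1 start position. The 4 most abundant sequences of the family are shown with the first base in capitals, because reads that begin at different bases behaved differently.
Lead: Ggaataccgggtgctgtaggcttt
Lead without its last base: Ggaataccgggtgctgtaggctt
Start 1 base later: Gaataccgggtgctgtaggcttt
Start 3 bases later: Ataccgggtgctgtaggcttt

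Reads that began at the first base of the lead were 75.2% of the family over all libraries. In epicardium they were 60973, 2829 and 2644 RPMU in hearts 6, 7 and 8, in mid-myocardium 20813, 5281 and 1656, and in endocardium 42093, 24110 and 4365. Reads that began 1 base later stayed between 1169 and 2531 RPMU in 8 libraries and reached 7708 in the endocardium of heart 6. The start at the lead therefore made up 91.9% of the family in the epicardium of heart 6 and 30.5% in the mid-myocardium of heart 8. At the 3′ end, the last base of the lead was the end of 57.8 to 75.9% of the reads in each library.

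**Figure D3:**
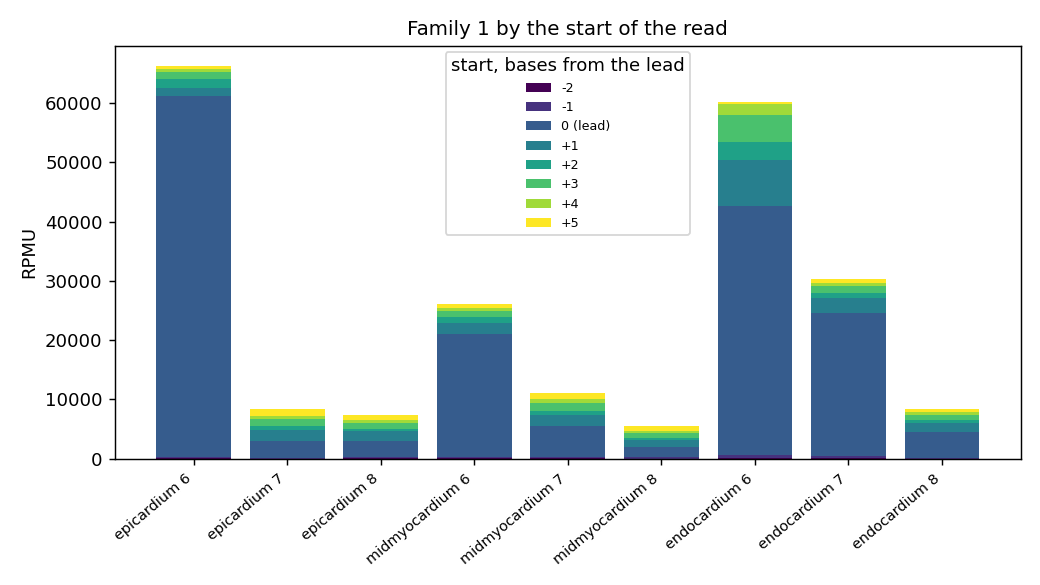
Reads of family 1 in each library (vertical axis, RPMU), stacked by the base at which the read starts, counted from the first base of the lead. Starts at the lead run from 1656 to 60973 RPMU and form most of the difference between libraries.

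The other families given a ribosomal name here, families 3, 6 and 10, varied less than family 1. Family 3 (5.8S 3′ end, 19 sequences, 45656 reads) stood at 13160, 8015 and 3375 RPMU in epicardium, 15527, 12019 and 5566 in mid-myocardium, and 17037, 3546 and 7965 in endocardium. Its 3′ end was the same in 89.7% of reads, while its most common 5′ end held 44.7%. Family 6 (28S, 28 sequences) ran from 3596 to 7898 RPMU, and family 10 (5.8S inner stretch, 20 sequences) from 1550 to 4429. For family 3 heart 6 was the highest in each layer.

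Family 2, which has no name here, had the smallest ratio of highest to lowest library among the 10 families, 2.004, with 2.20 in family 6. Its 17 sequences and 124170 reads gave 16819, 27766 and 28139 RPMU in epicardium, 21969, 25040 and 14040 in mid-myocardium, and 23272, 23470 and 14192 in endocardium. The 5′ end was the same in 99.6% of its reads, and 44.0% shared the most common 3′ end. Its lead was contained in 87 longer unannotated sequences of up to 47 nts, with 219985 reads.

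Family 7 joined a fixed 5′ part to many 3′ ends. Of its 52 sequences, 47 with 98.3% of the family's reads began with the same 18 bases, and 9 of these ended in CCA. The 6 most abundant are shown with the bases after the shared part in capitals.
Read 1: ttgtcctgagaagactgaACA
Read 2: ttgtcctgagaagactgaACAA
Read 3: ttgtcctgagaagactgaCACCA
Read 4: ttgtcctgagaagactgaAC
Read 5: ttgtcctgagaagactgaACAAA
Read 6: ttgtcctgagaagactgaACCA
Read 1 was counted 4418 times over the 9 libraries, read 2 2932 times, and the other 4 between 1074 and 2863 times. The family as a whole ran from 2325 RPMU in the endocardium of heart 7 to 9206 in the endocardium of heart 6, so a single layer held both extremes.

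**Figure D4:**
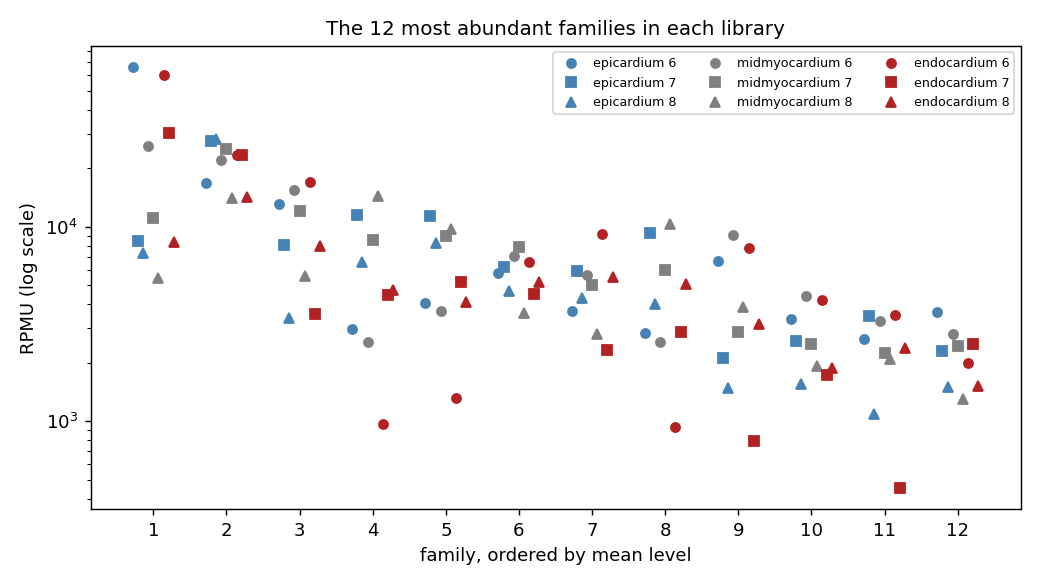
Level of the 12 most abundant families (horizontal axis, numbered by mean level) in each of the 9 libraries, in RPMU on a log axis. Colours mark the layer and symbols the heart. Family 1 spans 5430 to 66357 RPMU and family 2 spans 14040 to 28139.

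Families 4, 5 and 8 are rich in G and C and were low in the same libraries. Family 4 (47 sequences) stood at 2989, 11450 and 6598 RPMU in epicardium, 2552, 8532 and 14362 in mid-myocardium, and 969, 4480 and 4733 in endocardium. Family 5 (32 sequences) ran from 1309 to 11370 and family 8 (22 sequences) from 937 to 10300. All 3 families had their lowest value in the endocardium of heart 6, and in each layer heart 6 was below hearts 7 and 8.

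Heart 6 was also the lowest in each layer for all reads of the window with at least 75% G and C. These reads include the leads of families 4 and 8 (80 and 77.3% G and C), so their share partly repeats those levels. Their share without these families was not computed. In epicardium they were 9.17, 26.7 and 22.5% of the reads of 20 to 24 nts in hearts 6, 7 and 8, in mid-myocardium 10.1, 21.7 and 35.1%, and in endocardium 5.27, 18.02 and 20.9%. The 3 libraries of heart 6 lay below all 6 others, with no overlap. The mean G and C content of the reads annotated to rat miRNAs stayed between 46.0 and 46.6% in all 9 libraries, and that of the unannotated reads ran from 51.3 to 61.5%. This split by heart was seen in the data and was not tested.

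**Figure D5:**
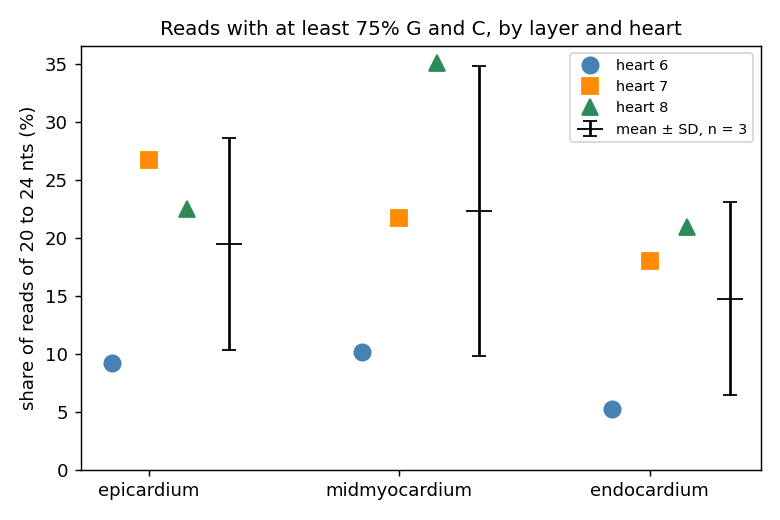
Share of reads of 20 to 24 nts with at least 75% G and C (vertical axis, percent) in each layer, with a symbol for each heart and the mean ± SD of 3 libraries. Heart 6 lies at 5.27 to 10.1% and hearts 7 and 8 at 18.02 to 35.1%.

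Sequences ending in CCA, as mature transfer RNAs do, numbered 179 in 65 families and held 74872 reads. The most abundant are shown with the final CCA in capitals.
Family 9 lead: cataaaaatgaacactttgaCCA
Member of family 2: actaaccctagccctacaaCCA
Family 11 lead: caaacaagtttaacttctgCCA
Second member of family 9: taaaaatgaacactttgaCCA
In the family 2 member the letters are inner ones, since the family's lead runs on past them. A deposited sequence ran on past the CCA in 41 of the 179, with 27.9% of their reads. All 179 made up 8.73% ± 1.91 (SD, n = 9 libraries) of the reads of 20 to 24 nts, and the 138 with no such longer sequence 6.40% ± 1.94. The same ending was found in 3.18% ± 0.562 of the unannotated reads of 15 to 19 nts, 3.66% ± 1.38 of those of 25 to 34 nts and 10.7% ± 2.12 of those of 35 to 55 nts. In reads of 20 to 24 nts annotated to rat miRNAs it was 0.184% ± 0.0312. Both this ending and the next were chosen after the sequences had been seen, so the shares are given as a description.

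The family 9 lead stood at 3727, 1118 and 916 RPMU in epicardium, 4864, 1473 and 1948 in mid-myocardium, and 4499, 465 and 1822 in endocardium. Heart 6 was the highest in each layer, and the endocardium of heart 7 was the lowest library. Its family ended at the same base in 97.6% of reads and began at 7 different bases, and family 11 ended at the same base in 100% of reads. Of the 179 sequences, 49 also occurred with the final A missing (46824 reads), and in 28 of these the shorter form had more reads. The shorter form of the family 2 member, where the letters are inner ones, alone had 39470 of the 46824 reads. The CCA share was 8.61% ± 3.17 in endocardium and 8.26% ± 0.971 in epicardium, which an exact permutation test did not separate (p = 0.9).

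Another 131 sequences in 65 families, with 40977 reads, held CTGA within the last 7 bases. The most abundant outside family 7 are shown with these letters in capitals. The letters are those of the D box, but a match of 4 letters is a description and identifies no RNA.
Family 22 lead: atgactccatgtttCTGAgc
Family 15 lead: attacggatctggcttCTGAga
Second member of family 15: taattacggatctggcttCTGAga
Their share was 4.77% ± 1.07 of the reads of 20 to 24 nts, against 1.82% ± 0.444 at 15 to 19 nts, 3.27% ± 0.799 at 25 to 34 nts, 5.26% ± 1.29 at 35 to 55 nts and 1.30% ± 0.301 in the annotated rat reads of 20 to 24 nts. Family 15 ended at the same base in 98.5% of reads and ran from 1100 to 3072 RPMU. Family 22 ended at the same base in 96.2% of reads and ran from 577 to 2033 RPMU. The CTGA share was 5.04% ± 1.40 in endocardium and 4.39% ± 0.247 in epicardium (exact permutation p = 0.4).

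Reads that matched a RefSeq rat miRNA were a small part of the window. Each sequence was compared with the RefSeq rat miRNA hairpins and mature forms (GRCr8), then with the deposited annotated reads, then with the sequence around gene starts. For miRNAs and annotated reads a match meant 16 bases in a row without mismatch. Around gene starts the whole read had to match without mismatch. RefSeq miRNAs took 37 sequences and 6725 reads, 0.761% ± 0.185 (SD, n = 9) of the reads per library. Annotated reads took 284 sequences and 8.15% ± 3.51. The first 50 bases of a gene took 1 sequence (45 reads), and the 250 bases upstream of a gene start took 41 sequences and 1.74% ± 0.412. Family 10, with the letters of 5.8S, supplied 20 of these 41 sequences and 89.6% of their reads. The remaining 2587 sequences matched nothing and held 89.3% ± 3.26.

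The RefSeq miRNA share was higher at 20 to 24 nts than at 25 to 34 nts, where it was 0.165% ± 0.0513 (SD, n = 9). It was the higher in 9 of 9 libraries (exact permutation within libraries, p = 0.00391, and p = 0.25 over 3 hearts, the smallest possible). The p over libraries counts the layers of a heart as separate although they share an animal. The window was set to the size of mature miRNAs, so the direction follows largely from that choice. No conclusion is drawn from either p. At 15 to 19 nts 1 of 2752 sequences matched, and a read of 15 nts cannot hold 16 matching bases. At 35 to 55 nts 0 of 2753 sequences matched, so neither of these lengths gives a test. When 1 mismatch was allowed, the comparison with 35 to 55 nts turned round, with 0.846% at 20 to 24 nts and 1.49% at 35 to 55 nts.

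Of the 37 sequences, 29 with 5318 reads were a miRNA followed by 1 to 4 bases that the RefSeq sequence does not have, and 22 of these had 3 such bases. The authors' annotation allowed up to 2 mismatches, so reads with fewer such bases could be annotated and are then outside this table. Another 5 lay whole within a RefSeq hairpin or mature form, and 3 matched Mir328b over their first 17 bases and then differed. Mir328b is only the RefSeq match of these 3, and whether they come from another miRNA was not tested. The added bases were A and T alone in 21 of the 29. The largest group was miR-143, a miRNA of smooth muscle and fibroblasts, with 13 sequences and 3610 reads. The mature form from RefSeq is given first with its seed (bases 2 to 8) in capitals, and then the 4 most abundant reads with the added bases in capitals.
rno-miR-143-3p: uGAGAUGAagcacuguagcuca
Read 1: tgagatgaagcactgtagctcTTT
Read 2: tgagatgaagcactgtagctcTTA
Read 3: tgagatgaagcactgtagctTTT
Read 4: tgagatgaagcactgtagAAA
RefSeq places this mature form on chromosome 18 at 57371373 to 57371394 of GRCr8, on the minus strand.

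Read 1 of miR-143 was counted 1338 times. It stood at 170, 218 and 263 RPMU in hearts 6, 7 and 8 in epicardium, at 292, 388 and 199 in mid-myocardium, and at 307, 178 and 265 in endocardium. The layers overlapped. All 13 miR-143 sequences together ran from 479 to 921 RPMU.

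The study proposed a rat miRNA similar to miR-676. RefSeq lists rno-miR-676 on the X chromosome at 69504650 to 69504671 of GRCr8, on the plus strand. It matched 3 sequences, shown because one equals the RefSeq mature form and another differs from it only in the added base in capitals.
rno-miR-676: cCGUCCUGagcuugucgagcua
Shortest read: ccgtcctgagcttgtcgagc
Read equal to the mature form: ccgtcctgagcttgtcgagcta
Read with another last base: ccgtcctgagcttgtcgagctT
The shortest had 393 reads, the read with another last base 210 and the read equal to the mature form 164. The shortest stood at 57.0, 81.6 and 81.4 RPMU in epicardium, 104, 75.8 and 36.7 in mid-myocardium, and 64.5, 76.8 and 65.3 in endocardium. Mid-myocardium held both the highest and the lowest library.

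Another sequence, with 116 reads, equalled a RefSeq mature form, rno-miR-6314 on chromosome 2 at 199217782 to 199217803 of GRCr8, on the plus strand.
rno-miR-6314: aGGCACUGacagaucugauggu
It ran from 10.2 RPMU in the epicardium of heart 8 to 40.3 in the epicardium of heart 6. At this level 3 reads correspond to 2.17 RPMU in the deepest library and 19.5 in the shallowest, so its values lie close to the counting limit of the shallowest library.

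The sequences that matched annotated reads were mostly related to entries of other species. Of the 284, 277 matched no rat entry. The 47 sequences of family 4 matched an entry named mir-125 of a wasp, Nasonia longicornis, and held 50.9% of the reads of this class, and 34 sequences matched MIR5678 of soybean. The 14 sequences under mir-486 of cattle held 2721 reads and ran from 258 to 617 RPMU. The paper sequenced a rat miR-486 gene that miRBase lacked, and these reads are not part of the RefSeq miRNA share.

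A family of 23 sequences, 19 of them under the human entry mir-3168, has, as background knowledge, the letters of the 5′ adapter that the library kit joins to RNA, and its sequence is not printed. It stood at 1897, 6407 and 33.4 RPMU in epicardium, 325, 1571 and 525 in mid-myocardium, and 1571, 674 and 3314 in endocardium. The extremes of all 9 libraries were both in epicardium.

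No sequence of 20 to 24 nts passed the test between layers. edgeR's quasi-likelihood test on the raw counts of all 13317 sequences called 0 of 2950 between endocardium and epicardium at an adjusted p of 0.05 (0% of all sequences called), 0 between mid-myocardium and epicardium (0%) and 0 between mid-myocardium and endocardium (0%). At an unadjusted p below 0.05 the counts were 142 (4.81%), 45 (1.53%) and 212 (7.19%), beside 4.33%, 2.11% and 6.89% of all sequences tested. The lowest adjusted p in the 3 comparisons was 0.975, 1 and 0.693. DESeq2 also called 0 in each comparison, with 85 (2.88%), 25 (0.847%) and 110 (3.73%) at an unadjusted p below 0.05, beside 3.01%, 1.22% and 4.69% of all sequences.

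The family 1 lead had a log2 fold change of 0.10 (SE 1.00) in endocardium against epicardium, and of 1.01 (SE 0.59) with the heart as a block. Endocardium was above epicardium in heart 7 (17302 against 1913 RPMU) and heart 8 (3037 against 1810) and below it in heart 6 (30007 against 43185). The leads of families 5 and 8 had -1.08 and -0.88, and the family 2 lead -0.25. None passed the test in either fit. The median log2 fold change of the 2950 sequences was -0.27 in endocardium against epicardium, beside -0.06 over all sequences. It was 0.15 beside 0.15 in mid-myocardium against epicardium and 0.45 beside 0.22 in mid-myocardium against endocardium. TMM scaling moved the median over all sequences to 0.04, 0.00 and -0.04 and that of the 2950 to -0.18, 0.00 and 0.20.

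With the heart as a block, edgeR called 2 of the 2950 between endocardium and epicardium, beside 0.0526% of all sequences, and 0 in the other comparisons. Both belong to the adapter family. The first had 88 reads in the endocardium of heart 8, 4 in the endocardium of heart 7 and 1 in the epicardium of heart 7, with 33 in the mid-myocardium of heart 7 and none in the other libraries. The second had 40 reads in the endocardium of heart 8, 4 in the endocardium of heart 7 and 27 in the mid-myocardium of heart 7. Without the endocardium of heart 8, 4 reads against 1 and 4 against 0 remain.

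No source class passed the test between endocardium and epicardium, where the smallest possible p is 0.1, and mid-myocardium was not tested. The RefSeq miRNA share was 0.794% ± 0.139 in endocardium and 0.738% ± 0.268 in epicardium (n = 3 each, exact permutation p = 0.8, adjusted p = 0.8 over the 5 classes). The share of annotated reads was 6.81% ± 3.15 and 8.65% ± 4.13, and the share without a match 90.6% ± 2.98 and 89.0% ± 4.09 (exact p = 0.6 and adjusted p = 0.75 for both).

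Libraries of the same heart were on average the more alike. Over the 2950 sequences, Pearson's r of log2(RPMU + 1) averaged 0.756 for the 9 pairs from the same heart (0.710 to 0.818), 0.687 for the 9 pairs from the same layer (0.586 to 0.768) and 0.677 for the 18 pairs that shared neither (0.483 to 0.809). These are correlations across sequences that overlap, between libraries of different depth, and are given as a description.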

How the data were processed

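Small RNA of 9 tissue pieces was made by the authors into TruSeq small RNA libraries, trimmed and aligned to miRBase in CLC Genomics Workbench, allowing up to 2 mismatches and 3 added or missing bases at an end. The deposited table of unannotated sequences gives raw counts and starts at a summed count of 10. The authors deposited annotated reads as RPM on the annotated total. Whole reads were recovered from 100% of these values, to within 0.01 of a read plus 1e-05 of the value, and were used for totals, lengths and markers only. A grouped table was not used.

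Unannotated reads per library ran from 153988 to 1379536 and annotated reads from 283991 to 1428025. Levels are reads per 1000000 unannotated reads of the library (RPMU). Layers were compared with edgeR 4.0.16 (glmQLFit, glmQLFTest) on all 13317 sequences and 9 libraries, with the unannotated total as library size and Benjamini-Hochberg adjustment at 0.05. The edgeR fit without the heart block was run on simulated counts for endocardium against epicardium, with the outcome not given here. The simulated counts had no heart effect, so that run does not cover libraries that share an animal. DESeq2 1.42.0, TMM scaling, a filter of 90 reads, other library sizes, summed families and leaving out each library were alternatives. Single values carry exact two-sided permutation tests (scipy). Replicates of a layer are separate animals.

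The libraries pair by animal. Deviations from the layer means of same-heart pairs correlated at 0.0929 to 0.461 over the 2950 sequences. Pairs that shared neither heart nor layer ran from -0.407 to 0.301, which overlaps that range. Same-layer pairs ran from -0.729 to -0.0590, and subtracting their shared mean lowers these values. Named sequences are the 20 highest by mean level, the 3 highest of each source class, those called in either fit, and those of miR-676 or equal to a RefSeq mature form. The sequences, families and lists were chosen with earlier results of these data known. Members of the adapter family are named without their letters.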

Additional observations from a re-analysis of the deposited data

How the results depend on the processing

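With 133 alternatives computed, 115 were counted as the same as the main result, 12 as moved and 6 as reversed. Shares were judged by the SD over libraries, counts by their ratio to the main count and differences by sign alone. No p was compared for the differences, and swaps within hearts keep the difference and so always count as the same. The number of sequences called stayed at 0 in all 3 layer comparisons except endocardium against epicardium with the replicate block, which gave 2, also with TMM scaling (2). The block changed no other call. Leaving out each library in turn gave 0 in every case. The share of 20 to 24 nts was 6.88% on annotated plus unannotated reads and 9.48% for 21 to 23 nts, and ran from 16.2 to 17.1% with a library left out. The endocardium minus epicardium difference ran from -4.07 to -0.333 percentage points. Swapping layers within hearts (the pairing) gave that same difference of -1.77 an exact p of 0.25, the smallest 3 hearts allow. Leaving out the adapter family, an alternative chosen after seeing the data, kept the direction of that difference.

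With 1 mismatch the annotated reads took 11.7% of reads, gene starts 1.37% (50 sequences), upstream sequence 0.383% and no match 85.7%, and the RefSeq miRNA share minus that at 35 to 55 nts became -0.646. Without its most abundant sequence, the gene start class had 0 sequences and 0%, and the unmatched class 82.1%. With a library left out, the endocardium minus epicardium difference ran from -0.0632 to 0.201 for RefSeq miRNAs, -3.87 to 0.256 for annotated reads, -0.0388 to 0.335 for upstream sequence, -0.465 to 3.63 for no match and -0.00311 to -0.000132 for gene starts. Ordering the classes with ribosomal, transfer and mitochondrial RNA first was not run, since no such reference was used here. Depth limits the rare sequences, as 1826 of 2950 had fewer than 90 reads in all.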
